A study of Homo sapiens with 2 samples.

Results

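The 41 genes described here act in S phase, the part of the cell cycle in which DNA is copied, and were chosen by name, with earlier results of these data known. All 41 were found by gene name among the 33538 genes of both libraries, and all 41 had a unique molecular identifier (UMI, the tag that marks 1 captured transcript) in both. The libraries came from HCT116, a human colon cancer cell line, and each condition had 1 library. DAC-treated cells had been given decitabine (DAC), a cytidine analog that is built into DNA and traps DNA methyltransferases, at 0.5 μM in 2 doses, the first a day after seeding (day 1) and the next on day 3. The drug was withdrawn by a change of medium at day 5, and cells were collected at day 7. Mock-treated cells had no DAC, and the labels do not say what the mock treatment contained. With no replicate of either condition there is no test, and every interval given is a 95% interval that covers counting error alone.

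To copy its DNA, a cell first loads the MCM helicase on replication origins, and then CDC45 and the GINS complex join the helicase and open the strands. Polymerases with their clamp PCNA copy the strands, ribonucleotide reductase and thymidylate synthase supply the nucleotides, and histone chaperones package the new DNA. Transcription of most of these genes is switched on by E2F factors once RB is inactivated in late G1, and in cancer cells their transcripts are widely used to mark cycling cells.

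The mock-treated library had 1783 cells with 49911689 UMIs and the DAC-treated library had 1751 cells with 59046165 UMIs, and both shared 12 barcodes. Because the depth differed, each cell was thinned at random to 10000 UMIs, so that 1388 mock-treated and 1293 DAC-treated cells were kept and the 395 and 458 below that depth were not. The median total before thinning was 31501.5 UMIs in the mock-treated and 43906 UMIs in the DAC-treated cells kept. More than 20% of the UMIs were mitochondrial in 25.8% of the mock-treated and 46.0% of the DAC-treated cells kept. All 6 epithelial markers were present in both libraries, with KRT18 at 19.8 UMIs per mock-treated and 40.2 UMIs per DAC-treated cell, KRT8 and KRT19 also above 10 UMIs, EPCAM at 3.53 and 2.30, CDH1 at 0.246 and 0.217, and CDX2 at 0.098 and 0.107. Of 6 markers of leukocytes, fibroblasts, and endothelium, COL1A1 had 142 and 262 UMIs in all mock- and DAC-treated cells together, a log2 ratio of 0.99 (0.69 to 1.29). The other 5, PTPRC, CD3E, COL3A1, PECAM1, and DCN, had between 0 and 3 UMIs in mock-treated and between 1 and 11 UMIs in DAC-treated cells.

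The 41 genes together were higher in DAC-treated cells. Their summed level was 12.1 UMIs per cell of 10000 UMIs (95% interval 11.95 to 12.3) in mock-treated cells and 26.7 (26.4 to 26.996) in DAC-treated cells, 2.20-fold higher (2.16 to 2.24). The median log2 ratio of DAC- to mock-treated cells over the 41 genes was 1.08, and that over all 12160 genes with 50 UMIs or more in both thinned libraries together was 0.21. After centering on that median gene, the log2 ratio of the sum was 0.92. Without thinning, over all deposited cells, the 41 genes held 0.134% of the mock-treated and 0.275% of the DAC-treated UMIs.

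All 41 genes and 62.7% of all genes had a ratio above 1 at equal depth, but that of CDCA7 was close to 1, and its log2 ratio of 0.06 became -0.16 after centering, -0.07 in a second random draw, and -0.05 without thinning, while that of PRIM1 became -0.03 after centering. With 25% higher or 20% lower (the same fold in either direction) as the limit, 39 of the 41 genes were higher and 0 were lower, where 43.4% of all genes were higher and 23% were lower. With all ratios centered on the median gene, 38 of the 41 were higher and 0 were lower, against 31.5% and 31.9% of all genes. A level 2-fold higher or more was seen in 25 of the 41 and in 14.1% of all genes. The percentage of cells with a UMI was also higher in DAC-treated cells for each of the 41 genes, and for 59.7% of all genes.

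**Figure D1:**
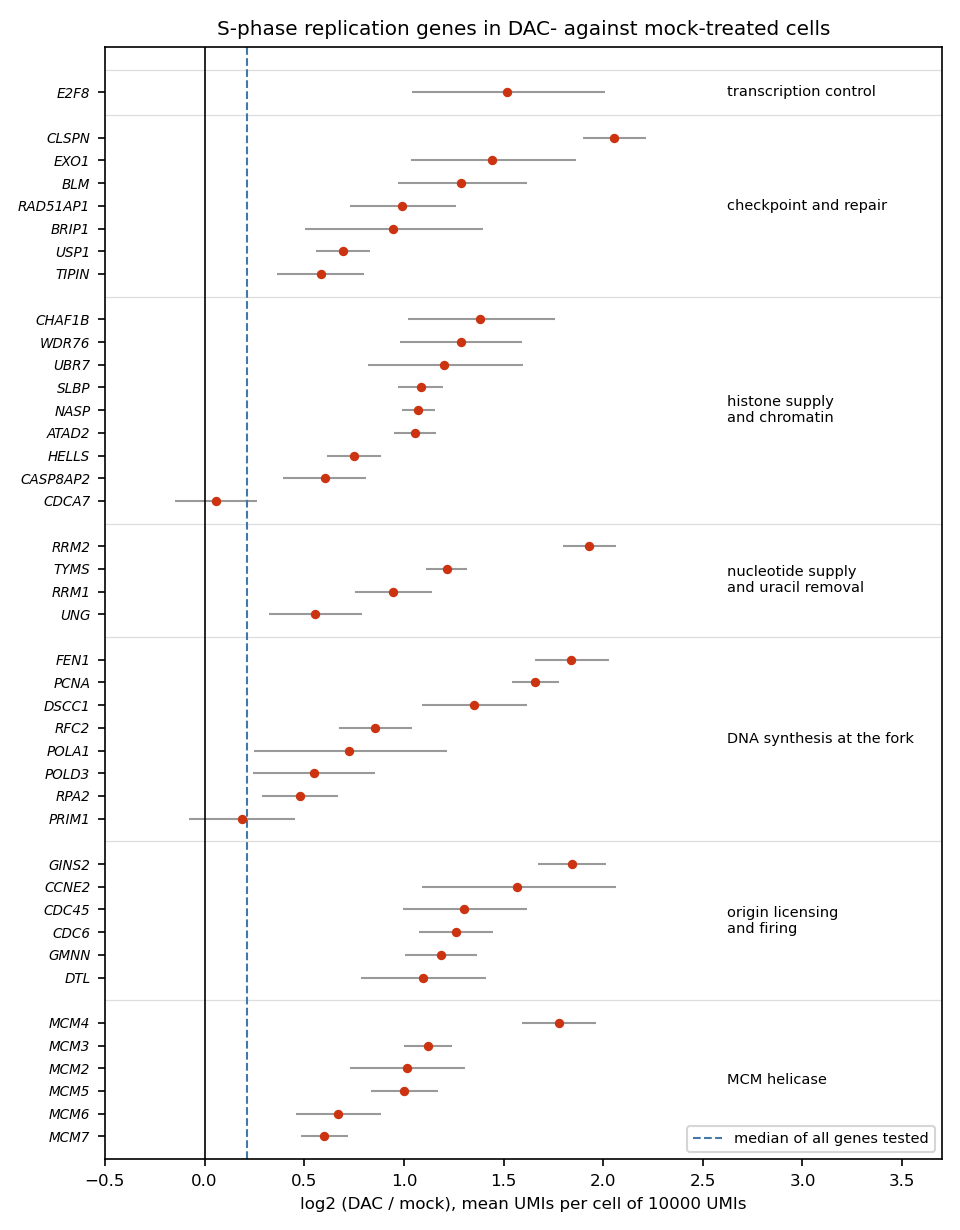
Log2 ratio of the mean UMIs per cell of 10000 UMIs in DAC- against mock-treated HCT116 cells (x axis) for the 41 genes, grouped by role (y axis), as points with 95% counting intervals. The dashed line is the median of all genes tested at 0.21, and CDCA7 and PRIM1 lie left of it, at 0.06 and 0.19.

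The 6 MCM genes encode the subunits of the replicative helicase, and together they had 2.22 UMIs per mock-treated and 4.43 UMIs per DAC-treated cell, a 1.99-fold difference. MCM4 stood apart from the other subunits, with 0.229 UMIs per mock-treated and 0.786 per DAC-treated cell, and its log2 ratio was 1.78 (1.59 to 1.96). MCM3 had 0.599 and 1.30 UMIs per cell, at a log2 ratio of 1.12 (1.00 to 1.24). MCM2 (0.112 and 0.226 UMIs per mock- and DAC-treated cell) and MCM5 (0.318 and 0.637) had log2 ratios of 1.02 (0.73 to 1.31) and 1.00 (0.83 to 1.17). The lowest ratios of the complex were those of MCM6, with 0.219 and 0.349 UMIs per cell and a log2 ratio of 0.67 (0.46 to 0.89), and MCM7, with 0.746 and 1.13 UMIs per cell and a log2 ratio of 0.60 (0.49 to 0.72). Thus, subunits that work as 1 ring differed in their ratios, and the counting interval of MCM4 did not overlap that of any other subunit.

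The 6 genes of origin licensing and firing had 1.00 UMI per mock-treated and 2.69 UMIs per DAC-treated cell in sum, 2.68-fold higher. GINS2, a subunit of the GINS complex, was highest among them in its ratio, with 0.264 and 0.948 UMIs per cell and a log2 ratio of 1.84 (1.67 to 2.01). At least 1 GINS2 UMI was found in 18.4% of mock-treated and 50.7% of DAC-treated cells. CCNE2, the cyclin E that drives entry into S phase, had few UMIs (50 and 138 in all cells kept) and a log2 ratio of 1.57 (1.09 to 2.06). CDC45, which completes the active helicase, had a log2 ratio of 1.30 (0.99 to 1.62), and CDC6, which loads the MCM ring, had one of 1.26 (1.08 to 1.45). The log2 ratio of GMNN, whose product geminin blocks loading a second time in the same cycle, was 1.19 (1.01 to 1.37), and that of DTL, which marks licensing factors for destruction in S phase, was 1.10 (0.79 to 1.41). Inhibitor and loader of the MCM ring were therefore both higher in DAC-treated cells, with overlapping intervals.

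The 8 genes of DNA synthesis at the fork were 2.34-fold higher in sum, with 1.80 UMIs per mock-treated and 4.20 UMIs per DAC-treated cell, and their ratios differed widely. FEN1, the nuclease that trims the ends of Okazaki fragments, had 0.223 and 0.80 UMIs per cell and a log2 ratio of 1.84 (1.66 to 2.03). PCNA (ENSG00000132646, chr20:5114953-5126626 on hg38, minus strand), the sliding clamp, had 0.552 and 1.74 UMIs per cell and a log2 ratio of 1.66 (1.54 to 1.78), and was found in 32.0% of mock-treated and 67.5% of DAC-treated cells. DSCC1 and RFC2, both of clamp loaders, had log2 ratios of 1.35 (1.09 to 1.62) and 0.86 (0.67 to 1.04). In contrast, the polymerase subunits POLA1 and POLD3 had lower ratios, 0.73 (0.25 to 1.22) and 0.55 (0.24 to 0.86) on the log2 scale, and RPA2, a subunit of the protein that coats single-stranded DNA, had 0.48 (0.29 to 0.67). PRIM1 (ENSG00000198056, chr12:56730438-56752374 on hg38, minus strand), the primase subunit that makes the RNA primers, had 0.166 UMIs per mock-treated and 0.189 UMIs per DAC-treated cell, and its log2 ratio of 0.19 had an interval of -0.08 to 0.45. The clamp and the flap nuclease thus lay more than 1 log2 unit above the primase and the polymerase delta subunit.

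Nucleotide supply and uracil removal was represented by 4 genes, with 1.69 UMIs per mock-treated and 4.28 UMIs per DAC-treated cell in sum. The small subunit of ribonucleotide reductase, RRM2, had 0.417 and 1.59 UMIs per cell and a log2 ratio of 1.93 (1.80 to 2.07). For the large subunit, RRM1, the levels were 0.251 and 0.485 UMIs per cell and the log2 ratio was 0.95 (0.76 to 1.14), so that both subunits of the enzyme were higher but by sizes whose intervals did not overlap. TYMS, which makes thymidylate, had 0.829 and 1.92 UMIs per cell and a log2 ratio of 1.21 (1.11 to 1.32). UNG, which removes uracil from DNA, had a log2 ratio of 0.55 (0.32 to 0.79).

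The 9 genes of histone supply and chromatin were 1.96-fold higher in sum, at 4.04 UMIs per mock-treated and 7.90 UMIs per DAC-treated cell. NASP, a chaperone of histone H3 and H4, had 1.31 and 2.75 UMIs per cell and a log2 ratio of 1.07 (0.99 to 1.15). SLBP, which binds the stem-loop of histone mRNAs, had 0.702 and 1.49 UMIs per cell and a log2 ratio of 1.08 (0.97 to 1.196), and ATAD2, a chromatin ATPase, had 0.784 and 1.63 UMIs per cell and a log2 ratio of 1.05 (0.95 to 1.16). These 3 genes gave close ratios, each near the median of the 41. CHAF1B, a subunit of the chaperone that places histones behind the fork, had a log2 ratio of 1.38 (1.02 to 1.76), WDR76 had 1.28 (0.98 to 1.59), and UBR7 had 1.203 (0.82 to 1.60). CASP8AP2, which acts in histone gene transcription, had a log2 ratio of 0.60 (0.39 to 0.81).

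HELLS and CDCA7 form a chromatin remodeler that is needed to keep DNA methylated, and the 2 partners differed. HELLS had 0.514 UMIs per mock-treated and 0.863 UMIs per DAC-treated cell, at a log2 ratio of 0.75 (0.61 to 0.89). CDCA7 had 0.282 and 0.293 UMIs per cell, at a log2 ratio of 0.06 with an interval of -0.15 to 0.26. The gene (ENSG00000144354) lies at chr2:173354820-173368997 on hg38, plus strand, and its transcript was found in 23.0% of mock-treated and 23.3% of DAC-treated cells.

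Of the 7 checkpoint and repair genes, which were 2.30-fold higher in sum, CLSPN (ENSG00000092853, chr1:35720218-35769978 on hg38, minus strand) had the highest log2 ratio of all 41 genes. Its product claspin links stalled forks to the kinase CHK1, and it had 0.297 UMIs per mock-treated and 1.23 UMIs per DAC-treated cell, a log2 ratio of 2.06 (1.90 to 2.22). EXO1, an exonuclease of mismatch and break repair, and BLM, a helicase of recombination, had log2 ratios of 1.44 (1.03 to 1.86) and 1.29 (0.97 to 1.62). RAD51AP1 and BRIP1, both of recombination, had 0.99 (0.73 to 1.26) and 0.95 (0.51 to 1.395). The ratio of BRIP1 left its interval at 5000 UMIs (0.31) and at 1000 UMIs (2.09), and it was 0.54 without thinning. USP1, which removes ubiquitin from PCNA, had a log2 ratio of 0.69 (0.56 to 0.83), and TIPIN, of the fork protection complex to which claspin also belongs, had 0.58 (0.36 to 0.80). Thus, CLSPN and TIPIN, of the same complex at the fork, differed by more than 1 log2 unit. E2F8, a repressor of E2F targets that is itself made in S phase, had 51 and 136 UMIs in the cells kept and a log2 ratio of 1.52 (1.04 to 2.01). This ratio depended on the depth. For E2F8 it was 1.51 at 5000 UMIs, but 0.95 at 20000 UMIs and 0.80 without thinning, both below that interval. Among the 41 genes, PRIM1, UNG, CHAF1B, UBR7, and FEN1 overlap another gene on the same strand, so that reads near the overlap could be counted for either.

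The levels were then read cell by cell. The summed UMIs of the 41 genes per mock-treated cell had a 5th percentile of 1, a median of 6, and a 95th percentile of 44.65, whereas those per DAC-treated cell had 4, 25, and 57.4. With 5 UMIs or fewer, 42.7% of mock-treated cells were low in these genes, and 10.2% of DAC-treated cells were. With 20 UMIs or more, 19.3% of mock-treated and 60.4% of DAC-treated cells were high. The highest cell of each library had 83 and 100 UMIs. The median number of the 41 genes detected was 5 per mock-treated and 15 per DAC-treated cell, and the squared coefficient of variation beyond Poisson sampling was 1.21 and 0.404. Relative to the mean, DAC-treated cells were therefore less spread in these genes.

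**Figure D2:**
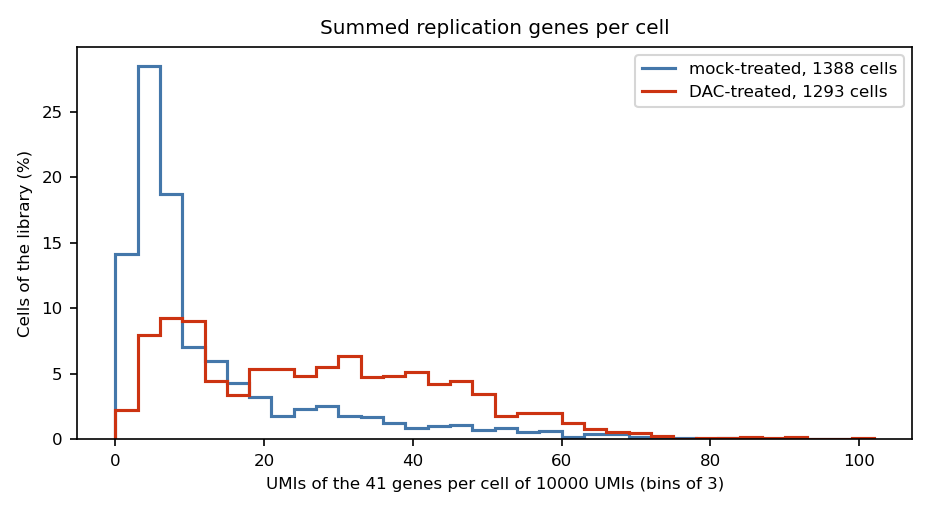
Percentage of cells of each library (y axis) by the summed UMIs of the 41 genes per cell of 10000 UMIs, in bins of 3 UMIs (x axis). Mock-treated cells have a single peak at low values with a long tail and a median of 6 UMIs, and DAC-treated cells spread broadly with a median of 25 UMIs.

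The difference was then split into how many cells expressed a replication program and how much they expressed. To keep this split independent of the 41 genes, cells were classed by 37 other replication genes, such as PCLAF and TK1, none of them among the 41. A cell with 8 or more UMIs of these 37 genes, the upper tertile of mock-treated cells, was called replication-high, by the same limit in both libraries. By this limit, 467 of 1388 mock-treated cells were replication-high (33.6%, a share that the limit sets), and 880 of 1293 DAC-treated cells were (68.1%, exact binomial 95% interval 65.4 to 70.6%). Within 2 UMIs of the limit lay 285 mock-treated and 212 DAC-treated cells. Each of the 41 genes was higher inside than outside this class in both libraries. None of them was used for the class, but the 41 and the 37 genes went together across the same cells (Pearson's r of 0.89 and 0.83). The result is therefore no separate support for the class, and no share over all genes is given beside it.

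Replication-high cells were not cells in S phase alone. Of the mock-treated replication-high cells, 76.7% also had 13 or more UMIs of 52 G2/M genes, and of the DAC-treated ones 97.5% did. Cells high in both lists had 29.3 UMIs of the 41 genes in the mock-treated and 35.7 UMIs in the DAC-treated library, and cells high in the replication list alone, 109 and 22 cells, had 13.4 and 14 UMIs. In phase calls made by scanpy scores of both lists, which place each cell in the phase with the higher score or in G1 where both are low, 9.01% of mock-treated (7.55 to 10.6%) and 7.81% of DAC-treated cells (6.41 to 9.41%) were in S phase, and 20.4% and 59.7% were in G2/M. By those calls the share of S-phase cells was not higher in DAC-treated cells, and the difference in G1, 70.6% of mock-treated and 32.5% of DAC-treated cells, was taken up by G2/M. Cells called S had 36.8 UMIs of the 41 genes in the mock-treated and 38.8 UMIs in the DAC-treated library. Those called G2/M had 22.8 and 34.4 UMIs, and those called G1 had 5.90 and 9.76 UMIs. The class is therefore named by its rule and not as a phase.

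Inside replication-high cells, the 41 genes had 25.6 UMIs per mock-treated and 35.2 UMIs per DAC-treated cell, 1.38-fold higher (1.35 to 1.405), where the median log2 ratio of all genes was 0.15. Outside them, the levels were 5.33 and 8.73 UMIs, 1.64-fold higher (1.57 to 1.71), where the median of all genes was 0.14. The rise was not particular to the 41 genes, as the sum of the G2/M genes was 1.33-fold higher inside the class and 1.55-fold outside it. For the 37 genes that set the class, these folds were 1.01 and 1.07. The libraries differed by 14.6 UMIs in the 41 genes. Of these, 8.03 (55.1%) went with the share of replication-high cells, 4.88 (33.5%) with the level inside them, and 1.67 (11.5%) with that outside them. Only the sum of the 3 parts is independent of the class: with the scanpy calls in its place, -1.65% went with the share of S-phase cells, at a difference in share of -1.19 percentage points, the log2 ratio inside S phase was 0.075, and that outside it was 1.41. With the limit at the mock median, 33.1% went with the share. Both libraries hold 1 cell line, so no cell type without these transcripts was there to measure free RNA, and its part in the levels outside the class was not tested.

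**Figure D3:**
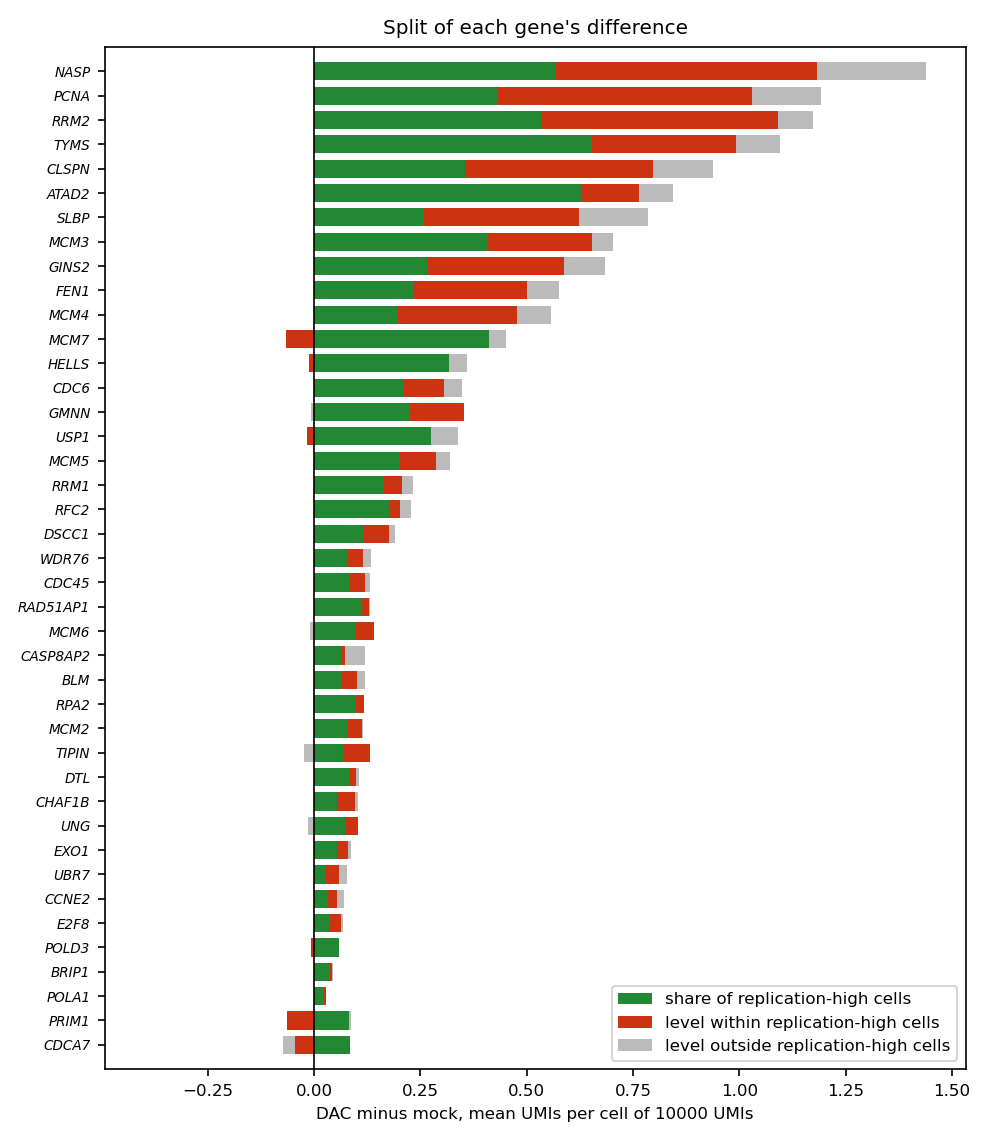
Difference between DAC- and mock-treated cells in mean UMIs per cell of 10000 UMIs (x axis) for each of the 41 genes (y axis, ordered by difference), split into the share of replication-high cells, the level within them, and the level outside them. The share part is above 0 for every gene, and the part of the level within the class is below 0 for PRIM1, CDCA7, MCM7, POLD3, USP1, and HELLS.

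Gene by gene, 23 of the 41 genes were higher by 25% or more inside replication-high cells and 1 was lower by 20% or more, where 38.9% of all genes were higher and 22.9% were lower. This count depended on the class. With the limit at the mock median, 34 were higher and 0 were lower (40.9% and 23.2% of all genes), and with the limit at the upper quartile, 16 were higher and 2 were lower (38.4% and 23% of all genes). Inside the S phase of the scanpy calls, 37 of the 41 genes had enough UMIs, of which 13 were higher and 8 were lower, against 34.9% and 25.2% of all genes. The lowest log2 ratios there were those of RAD51AP1 (-0.84), RRM1 (-0.71), CDCA7 (-0.59), and RPA2 (-0.55). The share part was more than 50% of the difference for 31 genes, and more than 100% for MCM7, PRIM1, POLD3, and CDCA7, whose level inside the class was lower. No share over all genes is given for these counts. Outside the class, 29 of the 41 genes had enough UMIs, of which 20 were higher and 3 were lower, against 39.4% and 25.4% of all genes.

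The genes with the highest ratios overall were also highest inside replication-high cells. MCM4 had 0.484 UMIs per mock-treated and 1.03 UMIs per DAC-treated replication-high cell, a log2 ratio of 1.09 (0.88 to 1.31). CLSPN had 0.788 and 1.66 UMIs (1.07, 0.91 to 1.24), and PCNA had 1.10 and 2.28 UMIs (1.05, 0.91 to 1.19). These 3 genes were at about 2-fold their mock-treated level even among cells chosen by the same limit. GINS2, RRM2, and FEN1 followed, with log2 ratios of 1.00, 0.97, and 0.95 inside the class, and SLBP was next with 0.74. In the same cells, CLSPN was found in 42.4% of mock-treated and 72.3% of DAC-treated ones, and RRM2 in 48.6% and 78.5%. Under the scanpy calls, these ratios were smaller but remained above 0, at 0.60 for MCM4, 0.58 for CLSPN, 0.49 for PCNA, 0.36 for GINS2 and FEN1, and 0.18 for RRM2.

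Other genes of the same machinery had lower ratios in this class. MCM7 had 1.61 UMIs per mock-treated and 1.48 UMIs per DAC-treated replication-high cell, a log2 ratio of -0.12 (-0.25 to 0.01), beside 1.09 for MCM4 of the same ring. HELLS, USP1, and POLD3 had log2 ratios of -0.03, -0.05, and -0.08, with intervals that included 0. PRIM1 had 0.368 and 0.243 UMIs, a log2 ratio of -0.60 (-0.90 to -0.30), and was the 1 gene lower by 20% or more. CDCA7 had 0.456 and 0.367 UMIs, a log2 ratio of -0.31 (-0.57 to -0.06). PRIM1 and CDCA7 were thus lower per replication-high cell although more cells were in the class, and both stayed below 0 with the limit at the mock median (-0.29 and -0.14), at the upper quartile (-0.64 and -0.40), with cells classed by the other members (-0.62 and -0.55), under the scanpy calls (-0.28 and -0.59), and with each library's own upper tertile as its limit (-0.17 and -0.25). In contrast, MCM7, HELLS, USP1, and POLD3 were below 0 in 3 of these 5 settings and above 0 with the limit at the mock median (0.20, 0.33, 0.31, and 0.18) and at each library's own tertile (0.19, 0.33, 0.13, and 0.27).

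**Figure D4:**
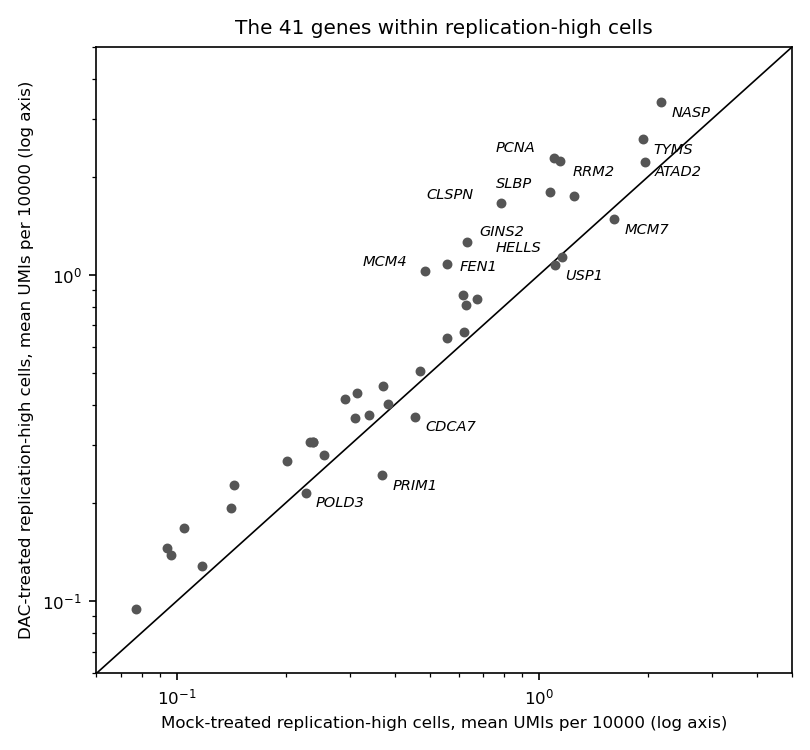
Mean UMIs per replication-high cell of 10000 UMIs in the mock-treated (x axis) and DAC-treated (y axis) library, both on log axes, with 1 point for each of the 41 genes and a line of equal levels. MCM4, CLSPN, and PCNA lie about a doubling above the line, and PRIM1 (0.368 and 0.243) and CDCA7 (0.456 and 0.367) lie below it.

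Cells were also compared at the same level of the 37 other replication genes, with no class. In cells with 0 to 1 UMI of those genes, the 41 genes had 3.86 UMIs per mock-treated and 6 per DAC-treated cell, 1.55-fold higher. The fold was 1.79 in cells with 12 to 14 UMIs, at 16.6 and 29.7 UMIs of the 41 genes, and 1.09 in cells with 33 to 39 UMIs, at 48.8 and 53.2 UMIs. The DAC-treated cells lay above the mock-treated cells in each of the 12 bins, and the smallest fold was at the top. With both libraries weighted to the same mix of bins, the 41 genes had 15.5 and 21.6 UMIs per cell, 1.39-fold higher, and 22 of them were higher by 25% or more and 2, PRIM1 and CDCA7, were lower by 20% or more, where 39.4% of all genes were higher and 24.3% were lower under the same weighting. Within a library, the 41 genes and the 37 others went together across cells, with Pearson's r of 0.89 in mock-treated and 0.83 in DAC-treated cells, which share their library and depth.

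**Figure D5:**
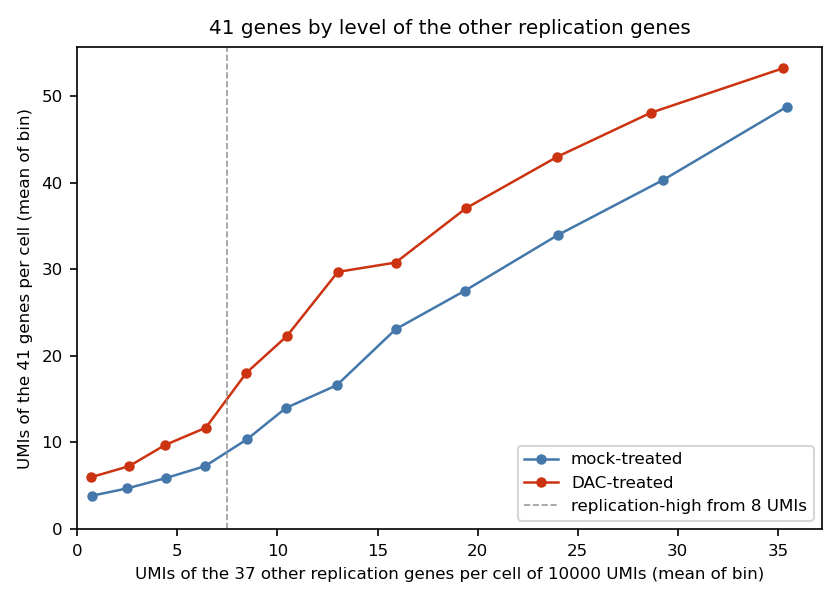
Mean summed UMIs of the 41 genes per cell (y axis) against the mean UMIs of the 37 other replication genes in the same cells (x axis), in bins of cells thinned to 10000 UMIs, for both libraries. The DAC-treated line lies above the mock-treated line in every bin and the lines approach each other at the right end, at 48.8 and 53.2 UMIs.

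Total UMIs per cell and the percentage of mitochondrial UMIs differed between the libraries and were set beside the result. Cell size was not measured. Cells were put in 6 bins of total UMIs before thinning, from 10000 to 20000 up to 60000 or more. Mock-treated cells had between 8.16 and 21.7 UMIs of the 41 genes, and DAC-treated cells had between 15.9 and 33.1 UMIs and were higher in each bin. The size of the difference varied, with 10.6 and 33.1 UMIs in cells of 30000 to 40000 UMIs. It was smaller in cells of 40000 to 50000 UMIs (21.7 and 31.3) and of 50000 to 60000 UMIs (19.3 and 27.9). Among cells with 20% mitochondrial UMIs or less, the 41 genes had 13.4 UMIs per mock-treated and 34.6 UMIs per DAC-treated cell. With more than 20% and up to 50%, the levels were 8.69 and 19.7 UMIs, and with more than 50%, they were 7.56 and 11.9 UMIs. The difference was thus present at each level of mitochondrial UMIs, and without the cells above 20% the log2 ratio of the sum was 1.37. In DAC-treated cells, Spearman's rho of the 41 genes with mitochondrial UMIs was -0.54 across 1293 cells, and in mock-treated cells it was -0.23 across 1388 cells, where both are shares of the same 10000 UMIs.

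The promoters of the 41 genes were searched for the words of E2F binding, TTTCCCGC, TTTCGCGC, TTTGCCGC, and TTTGGCGC, on both strands, in RefSeq windows of 300 bases from 250 bases before to 50 bases after the start (GRCh38.p14). On the opposite strand, TTTCCCGC reads GCGGGAAA, and TTTGGCGC and the reverse of TTTCGCGC can overlap. Of the 41 genes, 32 had a window, and 16 of these (50%) held at least 1 word, where 3.31% of all 35116 windows did. Windows of the 37 other replication genes held one in 31.0% (29 matched), and those of the G2/M genes in 6.82% (44 matched). The median number of CG dinucleotides per window was 30 for the members, 30 for the other replication genes, 24 for the G2/M genes, and 14 for all windows. Each E2F word holds a CG, and the part of CG content in these rates was not tested. Members and lists had 1 window per gene, whereas the set of all windows was not reduced in this way. The word CCAAT on either strand was in 71.9% of the members' windows, 48.3% of those of the other replication genes, 70.5% of those of the G2/M genes, and 34.6% of all windows. The sequences around the E2F words, in capitals, of 3 genes past the 25% limit inside replication-high cells, PCNA, GINS2, and TYMS, and of 2 that were not past it, MCM6, which was just below it, and CDCA7, are shown to set a high and a low ratio side by side, each read 5′ to 3′ on the strand of its gene:
PCNA, chr20:5126644-5126711, minus strand: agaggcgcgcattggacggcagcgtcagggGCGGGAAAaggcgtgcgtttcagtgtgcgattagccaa
GINS2, chr16:85688955-85689015, minus strand: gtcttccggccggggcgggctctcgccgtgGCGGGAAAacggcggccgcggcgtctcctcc
TYMS, chr18:657584-657651, plus strand: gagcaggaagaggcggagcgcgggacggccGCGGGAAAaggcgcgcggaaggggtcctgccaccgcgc
MCM6, chr2:135876492-135876563, minus strand: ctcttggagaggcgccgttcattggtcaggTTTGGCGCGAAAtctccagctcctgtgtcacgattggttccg
CDCA7, chr2:173354777-173354844, plus strand: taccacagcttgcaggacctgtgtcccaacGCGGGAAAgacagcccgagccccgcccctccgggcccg

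The same 8 letters, GCGGGAAA, thus lie before PCNA (a log2 ratio of 1.05 inside replication-high cells), GINS2 (1.00), TYMS (0.42), and CDCA7 (-0.31), beginning 59, 31, 39, and 65 bases before the start. MCM6 has 4 words in its window, 2 of which overlap in the stretch shown, and a log2 ratio of 0.30. Of the members with a window, 9 of 18 that were higher by 25% or more inside replication-high cells held a word, and 7 of 14 that were not did, so presence of these words was equally frequent in both. CCAAT was in 61.1% of the former windows and 85.7% of the latter. A match is a string of letters and was not measured as a bound site.

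Around the 41 genes, other genes of the cycle were read from fixed lists, and their counts stand beside 43.4% of all genes higher and 23% lower. Of the 37 other replication genes, 36 passed the minimum of 50 UMIs, 30 were higher by 25% or more, and 0 were lower, and their sum was 8.52 UMIs per mock-treated and 13.95 UMIs per DAC-treated cell (1.64-fold). FAM111B and MCM10 had the highest log2 ratios among them, 2.49 (2.001 to 3.02) and 1.83 (1.58 to 2.10), and POLD2, a polymerase delta subunit, had the lowest, -0.07 (-0.17 to 0.04), followed by RMI2 with 0.08 (-0.40 to 0.56). The G2/M genes were higher by 25% or more in 49 of 52 cases and lower in 0, at 26.0 and 56.3 UMIs per cell in sum (2.16-fold), with CDCA3 and CDCA8, both of mitosis, highest at log2 ratios of 2.19 and 2.03, and CKS1B and LBR lowest at 0.02 and 0.18. The replication genes were thus not alone, and the G2/M genes had a fold close to that of the 41 genes.

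Of 14 E2F, RB, and DREAM genes, which regulate this program, 9 were higher by 25% or more and 2 were lower, against the same 43.4% and 23% of all genes. MYBL2, the activator of late cell cycle genes, had a log2 ratio of 1.60 (1.4 to 1.8), and E2F2, an activating E2F, had 1.55 (0.96 to 2.17). TFDP2 and E2F5, a dimerization partner and a repressive E2F, had log2 ratios of -1.21 (-1.39 to -1.04) and -1.03 (-1.404 to -0.66). Of 11 CDK inhibitors and p53 targets, 5 were higher and 3 were lower, shares near those of all genes. MDM2 and TP53INP1, both targets of p53, had log2 ratios of 1.38 (1.21 to 1.54) and 1.18 (0.76 to 1.61), and GDF15 had 7.25 and 2.79 UMIs per cell, a log2 ratio of -1.38 (-1.43 to -1.32). CDKN1A, which encodes p21, had 0.994 UMIs per mock-treated and 1.85 UMIs per DAC-treated cell, a log2 ratio of 0.89 (0.80 to 0.99), CDKN1B had 0.201 and 0.166 UMIs (-0.27, -0.54 to -0.01), and CDKN2B had 0.141 and 0.098 UMIs (-0.52, -0.86 to -0.19). CDKN1C had 0.223 and 0.217 UMIs (-0.04, -0.28 to 0.20). CDKN2A, which encodes p16, had 1.14 UMIs per mock-treated and 0.776 UMIs per DAC-treated cell, a log2 ratio of -0.55 (-0.67 to -0.44).

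The replication-dependent histone genes, whose mRNAs are normally made in S phase without a poly(A) tail, had 9.13 UMIs per mock-treated and 8.71 UMIs per DAC-treated cell in sum, most of them from HIST1H4C, and single genes differed in direction. HIST1H4C had 7.52 and 4.72 UMIs per cell, and 17.2 and 6.72 UMIs per replication-high cell. SLBP and NASP, which serve histone mRNAs and proteins, were higher in the same cells. In contrast, HIST1H1C had 0.711 and 2.42 UMIs per cell, a log2 ratio of 1.77 (1.67 to 1.87), and HIST1H2BC and HIST1H2AC had log2 ratios of 1.67 (1.19 to 2.17) and 1.18 (0.90 to 1.46). HIST1H4H had 4 UMIs in all mock-treated and 120 UMIs in all DAC-treated cells kept, and HIST1H2BK had 20 and 137 UMIs, a log2 ratio of 2.88 (2.20 to 3.63). HIST1H1E and HIST2H2AC had log2 ratios of -0.62 (-0.84 to -0.40) and -1.003 (-1.22 to -0.79). HIST1H1A, HIST1H1B, and HIST1H1D had no UMI in mock-treated cells and 379, 258, and 89 UMIs in DAC-treated cells, so that they passed the minimum through the DAC-treated library alone and no count over the list is given. Because the library preparation captures poly(A) tails, these counts do not measure the histone mRNAs that lack one.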

How the data were processed

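Single cells of mock- and DAC-treated HCT116 (1 library each) were captured in droplets with a 3′ kit. The authors processed the reads with Cell Ranger on hg38, per the labels, and deposited raw counts, whole UMI numbers per gene and cell for 33538 genes. No filter on cells was given in the sources used here. The unit used was these deposited counts.

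Each cell was thinned to 10000 UMIs without replacement (seed 1), and cells with fewer were left out. Levels are mean UMIs per thinned cell. Sums have exact Poisson intervals, ratios exact conditional binomial intervals, and shares Clopper-Pearson intervals, at 95%. A fold of 1.25 (25% higher or 20% lower) and a minimum of 50 UMIs over both thinned libraries defined higher and lower genes, by size and without a test. The difference was split exactly at the midpoint of both libraries. Doublets were not called, and a setting without the top 5% of cells by UMIs was added in each library. Bins of under 20 cells were left out.

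Gene positions came from GENCODE release 44 and promoter windows from RefSeq (GRCh38.p14). Any of the 41 genes could be named. Of the other lists, the rule allowed the genes with the highest level and the 2 highest and 2 lowest ratios, and further genes (PCLAF, TK1, and those of the CDK inhibitor, histone, and cell type marker lists beyond the rule) were chosen after their values were seen. Members, lists, and rules were chosen with earlier results of these data known. Computations used Python 3.11.15, numpy 2.4.6, scipy 1.17.1, pandas 2.3.3, statsmodels 0.14.6, scanpy 1.11.5, and matplotlib 3.10.9. On simulated data for DAC against mock, 193 of 200 genes changed 2-fold were recovered within 0.25 on the log2 scale among 10011 genes. Recovery was counted after centering on the median gene. The changed genes were well expressed and outside the lists, so this rate does not carry over to members with few UMIs.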

Additional observations from a re-analysis of the deposited data

How the results depend on the processing

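The summary values and the ratios of the 41 genes were computed again under those of 17 planned settings, and 1 added after seeing the data, that apply to each, whereas other class limits were applied to the split alone and the lists, matched bins, and promoters were not recomputed. Of the summary values, 54 stayed within their counting interval (or, for counts, within 1.5-fold), 48 did not, and 2 changed sign. In whole libraries, no gene of the 41 that passed the minimum was lower past the limit in any setting run for this count (inside the class, between 0 and 8 were), and 326 of the single-gene ratios stayed within their interval while 125 did not. The log2 ratio of the sum was 1.14, and it was 1.28, 1.24, and 1.17 after thinning to 1000, 5000, and 20000 UMIs, 1.04 without thinning, 1.37 and 1.22 without cells above 20% and 50% mitochondrial UMIs, 1.17 without the 5% of cells with the most UMIs, 1.251 with mitochondrial genes removed, 0.92 after centering, and 0.98 with the same mix of total UMIs. The median over the genes was 0.87 after centering. At 1000 UMIs, 28 of the 41 genes passed the minimum and 26 of these were higher by 25% or more (47.1% of all genes were). At 5000 and 20000 UMIs, 39 were (45.5% and 45.1% of all genes), between 38 and 40 were in the other settings with the same limit and minimum, and 35 were with a limit of 1.5-fold or with a minimum of 200 UMIs.

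The difference in the share of replication-high cells was 34.4 percentage points, and it was 23.1 at 1000 UMIs, 48.1 without cells above 20% mitochondrial UMIs, 38.8 with mitochondrial genes removed, 26.7 with the same mix of total UMIs, 24.9 with the limit at the mock median, 41.5 with cells classed by the other members, and -1.19 by scanpy calls of S phase. The part that went with the share was 55.1%, and in the same order of settings it was 22.4, 57.6, 52.8, 49.1, 33.1, 65.4, and -1.65%. It was 46.0% and 56.6% at 5000 and 20000 UMIs, 50.4% without the 5% of cells with the most UMIs, and 59.4% with the limit at the upper quartile.

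The log2 ratio inside replication-high cells was 0.46. It was 0.89 and 0.62 at 1000 and 5000 UMIs, 0.50 without cells above 50% mitochondrial UMIs, 0.55 without the 5% of cells with the most UMIs, 0.54 with mitochondrial genes removed, 0.25 after centering, 0.77 and 0.34 with the limit at the mock median and upper quartile, 0.35 with cells classed by the other members, 0.075 by scanpy calls, and 0.75 with a limit set in each library at its own upper tertile. Outside them it was 0.71, and 1.29 and 0.89 at 1000 and 5000 UMIs, 1.02 without cells above 20% mitochondrial UMIs, 0.80 with mitochondrial genes removed, 0.65 in a second draw, 0.50 after centering, 0.83 with the upper quartile, 0.58 with the other members, 1.41 by scanpy calls, and 1.72 with each library's own tertile. The cause of these differences was not tested. Thinning to 1000 UMIs leaves few UMIs of the 37 genes per cell, and 1 library per condition leaves differences between cultures unmeasured. No paired analysis was possible because each condition had 1 library.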
